A study of Mus musculus with 2 samples.

Results

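The miR-99/100 and miR-125 genes Mir99a, Mir99b, Mir100, Mir125a, Mir125b-1 and Mir125b-2 were taken by their symbols in the GENCODE M21 annotation, as 6 of the 2202 microRNA genes in the deposited counts. All 6 had at least 10 counts in each library, as did 403 of all genes. The study sequenced small RNAs of the adrenal gland, the organ of steroid hormones and catecholamines, from C57BL/6J mice, untreated as far as the labels say, in 1 group of 2 libraries numbered as biological replicates 1 and 2. One label calls the animals wild-type females, another gives the sex as not collected, and the age is unknown. The libraries come from separate tissue samples with the same donor identifier, and no label says that these are separate animals, so differences between them may be technical.

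The genes lie in 3 paralogous clusters, each with a miR-99/100 gene, a let-7 gene and a miR-125 gene in that order on the plus strand. A microRNA is cut from a hairpin transcript, and bases 2 to 8 of the mature strand, the seed, pair with target messenger RNAs. miR-125 is the mammalian relative of lin-4, the founding microRNA of nematode developmental timing, and with let-7 it is known for repressing Lin28. miR-99/100 is related to miR-10 and is known for targeting the growth regulators mTOR and IGF1R, also in adrenocortical tumour cells. In steroid-producing cells miR-125a is known for targeting Scarb1, the receptor that takes up cholesterol esters from lipoproteins.

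The RefSeq mature 5′ arms (GRCm38.p6), shown because they define both families, fell into 2 seed groups, with the seed in capitals. All 6 genes had their mature arms in that table.
miR-99a-5p: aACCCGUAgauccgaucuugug
miR-100-5p: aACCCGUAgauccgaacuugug
miR-99b-5p: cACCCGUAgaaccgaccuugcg
miR-125a-5p: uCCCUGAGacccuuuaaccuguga
miR-125b-5p (from Mir125b-1 and Mir125b-2): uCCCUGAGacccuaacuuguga
Counted from 1 at the 5′ end, miR-99a-5p and miR-100-5p differed by the substitution U16A alone. From miR-99a-5p to miR-99b-5p there were 4 substitutions, A1C, U11A, U16C and U21C, all outside the seed. miR-125a-5p and miR-125b-5p shared their first 13 bases and were 3 edits apart. The arms on the other side of the Mir125b hairpins, shown because they are what differs between these copies, were distinct.
miR-125b-1-3p: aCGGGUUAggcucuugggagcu
miR-125b-2-3p: aCAAGUCAgguucuugggaccu

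The shared 5′ arm bears on the Mir125b counts, since the deposited tables keep reads with several alignments in a row of their own, outside the genes. In the RefSeq hairpin of Mir125b-1 (mm10 chr9:41581926-41582002, plus strand), capitals mark the 24 bases that recur in another annotated microRNA transcript, which are the 5′ arm and the 2 bases before it.
Mir125b-1 hairpin: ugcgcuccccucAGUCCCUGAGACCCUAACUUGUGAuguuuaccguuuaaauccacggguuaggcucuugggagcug
Of its 56 windows of 22 bases, 3 recurred elsewhere, and no window of the Mir99a, Mir100 or Mir125a hairpins did. With 1 mismatch allowed, 7 windows of Mir125b-1 and 2 each of Mir99a and Mir100 recurred, and still 0 of 47 of Mir125a. A read confined to the capitals and free of mismatches fits both Mir125b genes equally. The levels of both genes are therefore uncertain, since such reads belong to the row of several alignments. How many reads with several alignments carry this sequence, and how many mismatches the authors' aligner allowed, was not tested.

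Levels are sense-strand gene counts per 1000000 (CPM). The libraries held 9137907 counts in replicate 1 and 6570375 in replicate 2, while 35.9% and 36.0% of all reads had several alignments. A count covers a whole hairpin gene, so its arms are not told apart, and counting intervals cover counting error only. The summed level of the leukocyte list was 3237 and 3559 CPM and that of the kidney list 112 and 118 CPM, and other marker lists are given at the end. Among defining markers, 6 of 8 striated muscle genes and 6 of 8 neuronal genes were at 0 in both libraries, and several of these have near-identical copies. The tables hold no messenger RNAs, so the steroid enzymes that define the cortex were not measured. In bulk tissue, fewer cells of a type and less RNA per cell cannot be told apart.

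The 6 genes together held 4.32% of the counts in replicate 1 and 4.62% in replicate 2. The miR-99/100 genes summed to 29100 and 32818 CPM and the miR-125 genes to 14073 and 13400 CPM. The miR-99/100 sum was thus 2.07 and 2.45 times the miR-125 sum (mean 2.26 ± 0.27, SD, n = 2), on the CPM scale, and lay above it in both libraries. The miR-125 sum lacks the reads confined to the shared miR-125b arm.

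Within miR-99/100, Mir99a had 19852 CPM in replicate 1 and 24929 CPM in replicate 2 (22390 ± 3590, SD, n = 2), ranking 13 of all genes in each library. It lies on chromosome 16 at 77598936-77599000 (mm10) in an intron of Mir99ahg, a long non-coding host transcript. Mir99b had 7065 and 5423 CPM (6244 ± 1161), at ranks 25 and 35. It lies on chromosome 17 at 17830188-17830257 in an intron of Spaca6, a protein-coding gene known for sperm-egg fusion. Mir100 had 2183 and 2467 CPM (2325 ± 200.3), at ranks 47 and 48. It lies on chromosome 9 at 41531425-41531504 in introns of the non-coding genes 3110039I08Rik and Gm49317, opposite an exon of the non-coding gene Gm48742. Mir99a was the high gene of this family and Mir100 the low one in both libraries, and their ranges did not overlap. Mir99a held 68.2% of the family's total in the replicate 1 library (exact 95% counting interval 68.0 to 68.4) and 76.0% in that of replicate 2 (75.8 to 76.1). The share of Mir99b was 24.3% and 16.5%, while that of Mir100 was 7.50% (7.40 to 7.60) and 7.52% (7.41 to 7.63). The Mir100 intervals overlapped, and those of Mir99a and Mir99b did not.

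Within miR-125, Mir125a had 13350 and 12586 CPM (12968 ± 541, SD, n = 2), at ranks 19 and 20. It lies on chromosome 17 at 17830812-17830879, overlapping an exon of Spaca6. Mir125b-2 had 436 and 530 CPM (483 ± 66.8) and lies on chromosome 16 at 77646273-77646343 in an intron of Mir99ahg, overlapping an exon of C130023A14Rik. Mir125b-1 had 287 and 283 CPM (285 ± 2.43) and lies on chromosome 9 at 41581926-41582002 in introns of 3110039I08Rik and Gm49317, overlapping an exon of Gm28119. Mir125a held 94.9% and 93.9% of the counts of the family. Both Mir125b genes stood far below it in both libraries, on counts that leave out their shared arm, so this gap does not compare mature miR-125a with mature miR-125b.

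In order of mean CPM, Mir99a was followed by Mir125a, Mir99b, Mir100, Mir125b-2 and Mir125b-1. Each gene exceeded the next in both libraries, and no neighbouring ranges overlapped. The nearest neighbours were Mir125b-2 and Mir125b-1, with CPM ratios of 1.52 and 1.87, and Mir99a and Mir125a, with 1.49 and 1.98. The farthest neighbours were Mir100 and Mir125b-2, with ratios of 5.01 and 4.65. From the highest to the lowest the CPM ratio was 69.2 in replicate 1 and 88.0 in replicate 2. Both Mir125b counts leave out reads confined to their shared arm, so their places and the ratios that involve them hold for counted reads only. A read here spans a mature strand rather than a piece of a long transcript, so counts were not divided by length. Divided by annotated gene length and scaled to a total of 1000000, the order was the same, from 27962 ± 4568 for Mir99a to 300.5 ± 1.63 for Mir125b-1. None of the 6 genes had a count on the opposite strand.

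**Figure D1:**
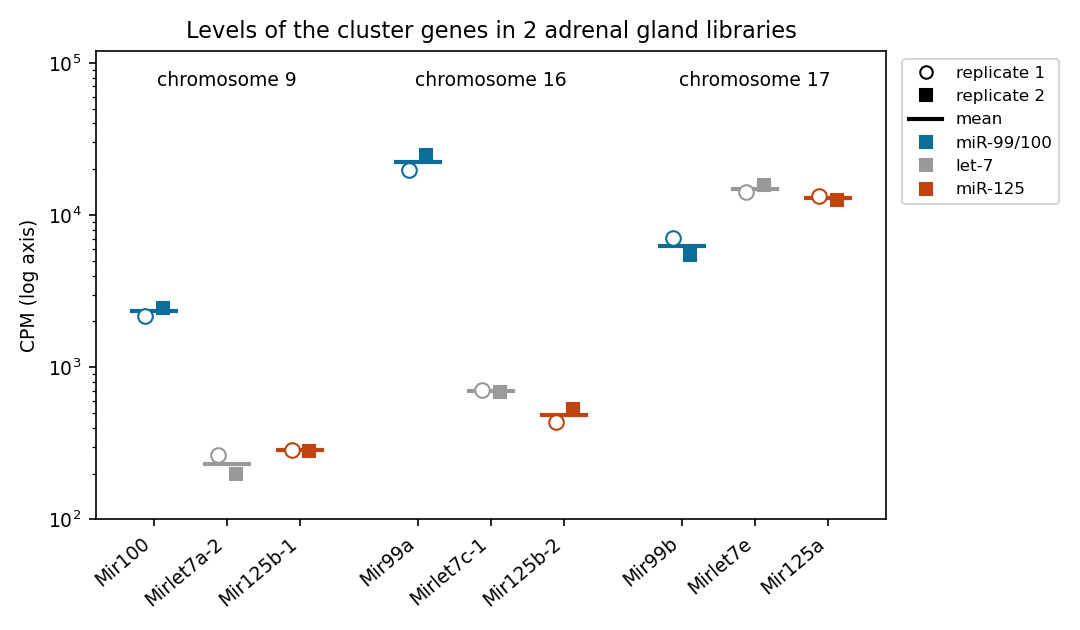
CPM on a log axis of the 9 genes of the 3 clusters, with an open circle for replicate 1, a filled square for replicate 2 and a bar for their mean, coloured by family. Mir99a is highest at 19852 and 24929 CPM, the genes of the chromosome 17 cluster lie close together, and both Mir125b genes lie lowest among the miR-99/100 and miR-125 genes. The Mir125b counts leave out reads confined to their shared arm.

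The clusters differed in how their genes were ordered by level. On chromosome 17, where Mir99b, Mirlet7e and Mir125a lie within 692 bases, Mirlet7e had 14105 and 15665 CPM. Mir125a counts were 1.89 times those of Mir99b in replicate 1, with an exact 95% counting interval of 1.87 to 1.91. They were 2.32 times as high in replicate 2 (2.29 to 2.35). Mirlet7e had 1.06 and 1.24 times the counts of Mir125a, and 2.00 and 2.89 times those of Mir99b. The miR-99/100 gene was thus the lowest of this cluster in both libraries, and all 3 ratios differed between libraries by more than their counting intervals.

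On chromosomes 16 and 9 the miR-99/100 gene was instead the highest. Mir99a had 45.5 and 47.0 times the counts of Mir125b-2, which lies 47272 bases downstream. The ratio of Mir125b-2 to Mir99a, 0.0220 (0.0213 to 0.0227) and 0.0213 (0.0206 to 0.0220), was the only one of the 9 within-cluster ratios whose intervals overlapped. Mir100 had 7.61 and 8.70 times the counts of Mir125b-1. The let-7 genes of these clusters were low as well, Mirlet7c-1 at 713 and 688 CPM and Mirlet7a-2 at 264 and 198 CPM. The mature 5′ arm of Mirlet7c-1 also lies in Mirlet7c-2, and let-7a has several loci, so these counts too leave out reads with several alignments. Ratios that involve Mir125b-1, Mir125b-2, Mirlet7c-1 or Mirlet7a-2 therefore compare the uniquely placed reads only. The chromosome 17 ratios involve no mature arm found exactly in another annotated microRNA gene. Matches with a mismatch were not searched for Mir99b and Mirlet7e.

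**Figure D2:**
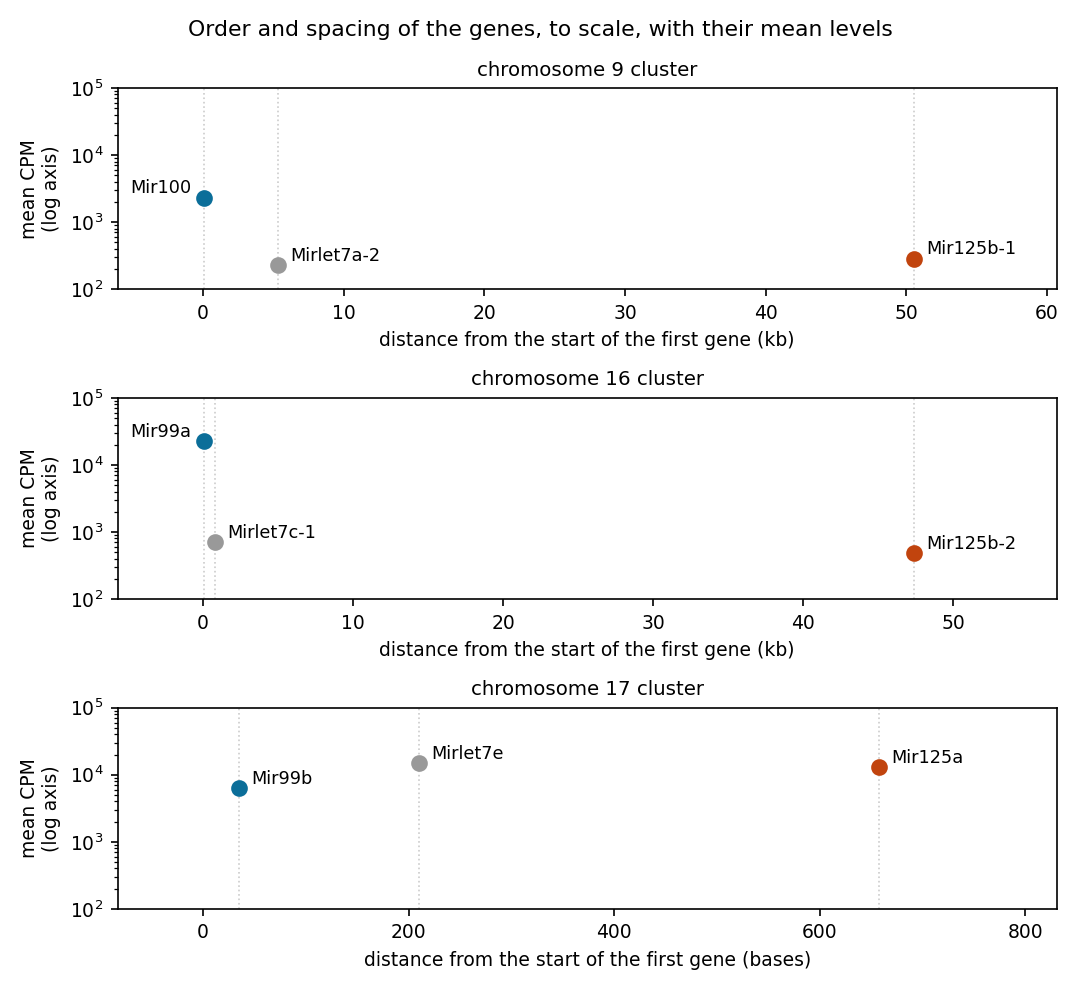
Position of each gene, drawn to scale as distance from the start of the first gene of its cluster, against its mean CPM on a log axis, one panel per chromosome. The chromosome 17 genes lie within 692 bases at mean levels of 6244 to 14885 CPM, while on chromosomes 9 and 16 the miR-99/100 gene stands above its cluster neighbours.

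**Figure D3:**
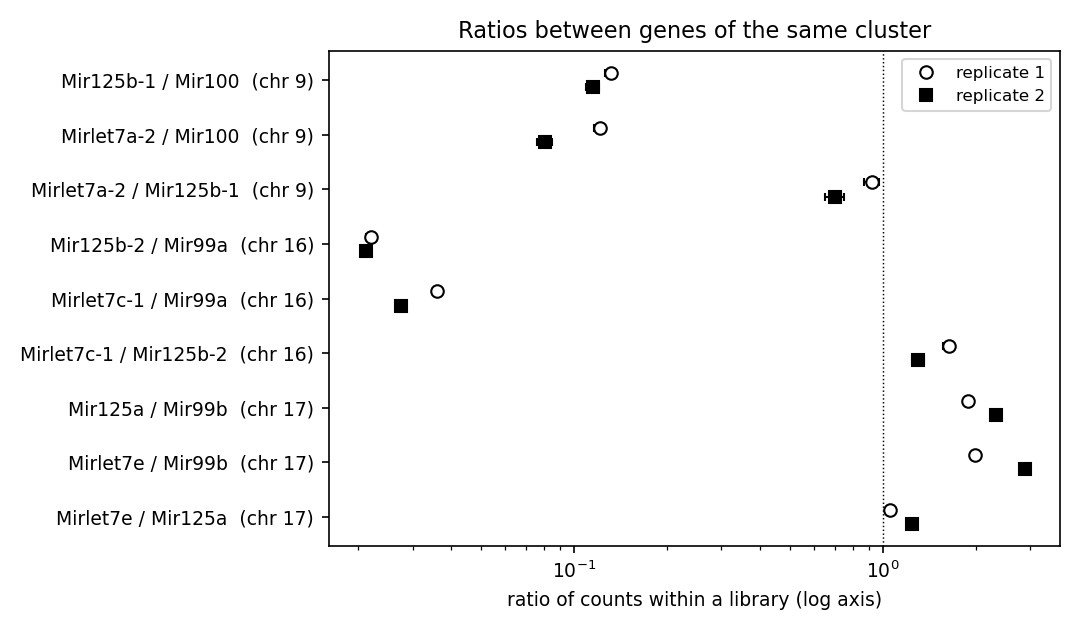
Ratio of counts between genes of the same cluster in replicate 1 (open circle) and replicate 2 (filled square) on a log axis, with exact 95% counting intervals. The ratio of Mir125b-2 to Mir99a, near 0.02, is the one whose intervals overlap. All ratios of the chromosome 17 cluster lie above 1, as does that of Mirlet7c-1 to Mir125b-2 on chromosome 16.

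As background, the same quantities were taken over all other pairs of tested microRNA genes on the same strand with at most 60 kb between them, 780 pairs that share genes with each other. Their log2 levels differed by a median of 2.49 (quartiles 1.16 and 4.24), and the 9 pairs inside the clusters had a median of 1.25, with a range from 0.20 for Mirlet7e and Mir125a to 5.53 for Mir99a and Mir125b-2. Of the other pairs, 5.13% were closer in level than Mirlet7e and Mir125a, and 85.8% were closer than Mir99a and Mir125b-2. The log2 ratios between libraries differed by a median of 0.42 in the other pairs (quartiles 0.19 and 0.82) and 0.33 in the cluster pairs. Mir99a and Mir125b-2 differed by 0.05, and 5.90% of other pairs differed by less. Mir100 and Mirlet7a-2 differed by 0.59, and 63.3% of other pairs differed by less.

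The libraries were also compared with each other, which says nothing of conditions. The test (exact two-sided binomial, scaled by TMM, Benjamini-Hochberg adjustment over all 426 tested genes) takes counting error alone as its error. Mir99a, at 181404 and 163791 counts, was higher in replicate 2, with a log2 ratio of replicate 2 over replicate 1 of 0.23 (95% counting interval 0.22 to 0.24). Mir99b, at 64556 and 35628 counts, was higher in replicate 1, with a log2 ratio of -0.48 (-0.50 to -0.46), a 1.39-fold difference and the largest of the 6. The p-values of both were too small for the calculation to hold. Mir125a had a log2 ratio of -0.18 (adjusted p = 1.53e-174, exact binomial), Mir125b-2 of 0.19 (1.10e-07), Mir100 of 0.08 (8.98e-07) and Mir125b-1 of -0.12 (0.0165).

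All 6 genes passed this test, 3 in each direction, where 56.1% of all tested genes passed, 26.5% higher in replicate 2 and 29.6% higher in replicate 1. Among the 184 genes that averaged 100 CPM or more, 85.3% passed. The 6 genes averaged from 285 to 22390 CPM, so this set reaches down to lower counts than theirs. None of the 6 differed by more than 1.5-fold, as 18.5% of those 184 genes did. The median absolute log2 ratio was 0.18 over the 6 genes, 0.30 over all tested genes and 0.23 over the 184. With scaling by total counts Mir125b-1 did not pass (log2 ratio -0.02, adjusted p = 0.778, exact binomial), nor with DESeq2 size factors (-0.09, adjusted p = 0.0700), and the other 5 passed in the same direction under both. By these scalings 57% and 54.9% of all tested genes passed. By total counts 61.7% of all calls were higher in replicate 2, against 47.3% with TMM.

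When the spread between the libraries was itself taken as the error, in edgeR's exact test with a common coefficient of variation of 0.299 estimated from these same libraries, 0 of the 6 genes passed. The lowest unadjusted p by edgeR's exact test was 0.438, for Mir99b, so 0 had an unadjusted p under 0.05. Of all tested genes 0.704% passed after adjustment and 6.34% before it. As the error comes from the same difference that is tested, a gene that differs no more than most could hardly pass. The 6 genes had a median absolute log2 ratio of 0.18, against 0.30 over all tested genes. That 0 of them passed was thus largely fixed in advance.

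**Figure D4:**
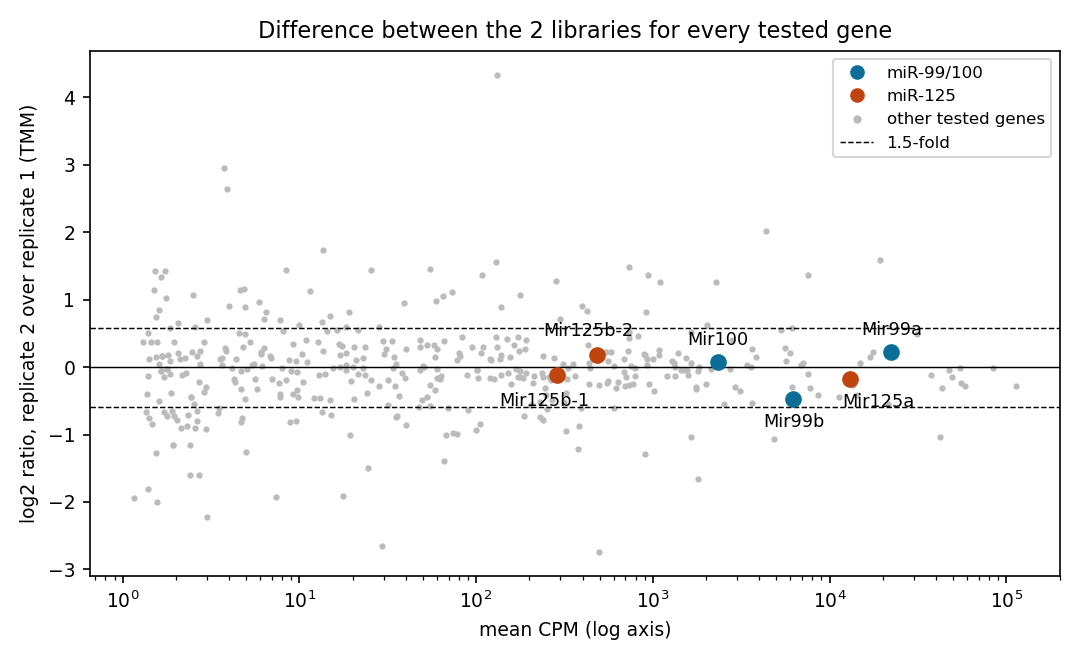
Log2 ratio of replicate 2 over replicate 1 with TMM scaling against mean CPM on a log axis for the 426 tested genes, with the miR-99/100 and miR-125 genes in colour and dashed lines at 1.5-fold. All 6 lie between the dashed lines, from -0.48 for Mir99b to 0.23 for Mir99a.

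The let-7 genes of the clusters differed in both directions, with Mirlet7a-2 (log2 ratio -0.51) and Mirlet7c-1 (-0.15) higher in replicate 1 and Mirlet7e (0.05) higher in replicate 2. By total counts Mirlet7c-1 did not pass (-0.05). Of the let-7 genes outside these clusters, 8 of 10 listed symbols were in the table. Of these, 6 were higher in replicate 1, 0 were higher in replicate 2 and 2 did not pass. By total counts 3 were higher in each library. They summed to 29.6% and 28.0% of the counts, against 1.51% and 1.66% for the let-7 genes of the clusters.

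Among relatives outside the clusters, the RefSeq table held 3 further mature sequences with the miR-125 seed and none with the miR-99/100 seed. Shown to compare the bases after the seed, they were as follows.
miR-351-5p: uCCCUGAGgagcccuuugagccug
miR-6367: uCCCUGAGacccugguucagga
miR-6394: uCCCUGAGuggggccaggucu
Mir351, an X-linked gene on chromosome X at 53053255-53053353 (minus strand), had 1533 and 2518 CPM (2026 ± 697, SD, n = 2), more than the counted reads of both Mir125b genes together in each library. It was higher in replicate 2, with a log2 ratio of 0.62 (interval 0.59 to 0.65). Mir6367 and Mir6394 had 0 counts in both libraries, which allows up to 0.328 CPM in replicate 1 and 0.457 CPM in replicate 2. With Mir351 the genes of this seed summed to 15606 and 15918 CPM, of which Mir125a was the main part by counted reads. This sum too lacks the reads confined to the shared miR-125b arm, which carries the same seed. miR-10 is grouped with miR-99/100 by sequence but has another seed, as the 5′ arm of Mir10a shows.
miR-10a-5p: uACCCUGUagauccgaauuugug
Mir10a had 53411 and 56465 CPM and Mir10b 15439 and 18397 CPM, so their sum of 68850 and 74862 CPM exceeded the miR-99/100 sum in both libraries.

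By a rule on mean CPM over both libraries, the genes nearest in level were Mir22 and Mir26b around Mir99a, Mir652 and Mir744 around Mir125a, Mir151 and Mir379 around Mir99b, Mir149 and Mir140 around Mir100, Mir369 and Mir540 around Mir125b-2, and Mir376c and Mir668 around Mir125b-1. The distances ranged from 0.00089 on the log2 scale for Mir376c to 0.47 for Mir22. Mir376c had 291 and 280 CPM, close to Mir125b-1 in each library, whereas Mir668 had 158 and 410 CPM. With 2 libraries this likeness is of level only.

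Some marker lists of other cell types differed between libraries as well. The erythroid list summed to 144 and 295 CPM, the mural and fibroblast list to 18914 and 15034 CPM, the endothelial Mir126a to 61677 and 54325 CPM and the neuroendocrine list to 54062 and 51805 CPM. The hepatocyte gene Mir122 had 128 and 71.5 CPM and the epithelial list 728 and 741 CPM. The neuronal list summed to 44.4 and 29.2 CPM and the striated muscle list to 1.09 and 1.67 CPM. Mir99b, Mir125a and, within its counting error, Mir125b-1 had lower CPM values in replicate 2, as had the endothelial, mural, hepatocyte, neuroendocrine and neuronal lists. Mir99a, Mir100 and Mir125b-2 had higher CPM values there, as had the erythroid, leukocyte, kidney, epithelial and striated muscle lists. These are directions of sums, which single genes of a list can go against. On the mural list Mir214 fell (2163 and 1132 CPM), while Mir199a-2 (8.10 and 9.28 CPM) and Mir199b (5.47 and 7.15 CPM) rose. On the epithelial list Mir200b rose (12.7 and 19.9 CPM) and Mir429 fell (11.1 and 6.70 CPM). The neuronal sum was almost all Mir128-1 (43.3 and 28.2 CPM), and 1 of its 8 genes had 10 counts in each library. The kidney and epithelial lists rose only 1.06-fold and 1.02-fold, less than the TMM shift of 0.098 in log2, so their direction depends on the scaling. On the striated muscle list 0 of 8 genes had 10 counts in each library, so its direction is within counting error. The part of cell makeup in these differences was not tested.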

How the data were processed

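The authors deposited for each library a table of raw read counts per microRNA gene on mm10 with GENCODE M21, per the descriptions beside the tables. Adapter trimming is pointed to per the labels' protocols, and the aligner and counter are not stated there or in the labels used. The tables have no header. From their values the 3 columns were read as unstranded, sense and antisense counts, and the sense column was used. The 4 rows that name no gene held 51.2% and 54.6% of reads and were left out.

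CPM, exact (Clopper-Pearson) 95% intervals and the binomial test (genes with at least 20 counts over both libraries, 0.5 counts added to log2 ratios, adjusted p threshold 0.05) were computed with Python 3.11.15 and scipy 1.17.1. TMM scaling and the exact test came from edgeR 4.0.16, and size factors from DESeq2 1.42.0. With 1 group no quasi-likelihood test could be fitted. The binomial test was tested on simulated counts with counting error alone, so this does not cover the spread between these libraries. TMM lowered all log2 ratios by 0.098 against total counts.

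All 2202 identifiers matched GENCODE M21. RefSeq held hairpins for 4 of the 6 genes, not for Mir99b and Mir125b-2. Windows were searched in 2202 annotated microRNA transcripts and not in the genome. Genes named are the members, the let-7 genes, genes sharing a seed, Mir10a, Mir10b, the nearest genes in level and marker genes. Members and lists were chosen with earlier results of these data known.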

Additional observations from a re-analysis of the deposited data

Results flagged for a closer look

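Reads with several alignments, which no gene count holds, made up 35.9% of the replicate 1 library and 36.0% of the replicate 2 library. They are given because they are data outside the gene counts. The miR-125b 5′ arm, present in both Mir125b genes, can fall among them, and its share of them was not tested.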

How the results depend on the processing

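With edgeR's exact test in place of the binomial test, 3 genes were called in place of 239 (1 higher in replicate 2 and 2 in replicate 1), and of the members 0 in place of 6 (0 in each direction). This test takes the spread between the libraries as error, so genes that differ no more than most could hardly pass it. With all reads as denominator the mean levels were 10504 CPM for Mir99a, 2954 for Mir99b, 1093 for Mir100, 6114 for Mir125a, 134 for Mir125b-1 and 227 for Mir125b-2, and the sums were 14551 for miR-99/100 and 6475 for miR-125. Without the 20 most abundant genes in the denominator the levels were 96743, 27236, 10067, 56346, 1238 and 2089 CPM in the same order, and the sums 134045 and 59673. Both change only the denominator, and the order of the genes was the same. Mir99a and Mir125a, at ranks 12 and 20 by mean CPM, are themselves among the 20 genes left out. Their levels and both sums are then not shares of a total that contains them. Per annotated gene length, Mir99a had 27962, Mir125a 15476, Mir125b-1 300.5 and Mir125b-2 552. In reads on either strand, Mir100 had 2558 CPM, Mir125a 14274 and Mir125b-1 314. Their counts were the same as on the sense strand, and only the total of that column was smaller. Mirlet7e has no counts in that column, where its overlap with an opposite-strand gene makes reads ambiguous, so its ratios to Mir99b and Mir125a were 0. In sequence, Mir125b-1 shared 5 windows of 20 bases in place of 3 of 22, and with up to 1 mismatch, chosen after seeing the data, Mir125b-1 shared 7, Mir99a 2 and Mir100 2. The 90 other values under an alternative, over levels, sums, ratios, pair medians, shared windows and counts of calls, moved by at most 1 SD, for counts by at most 1.5 times, and for pair medians within the quartiles of the pairs. They include 5 members called in place of 6 under total counts and DESeq2 size factors, and 150 calls higher in replicate 2 against 93 in replicate 1 by total counts, in place of 113 against 126. Leaving out a replicate leaves 1 library, so the library comparison could not be repeated, and each level or ratio then is that of the other library. For these levels, sums and ratios a move of at most 1 SD was fixed in advance, since a mean of 2 libraries lies within 1 SD of each. Ratios in reads on either strand were also fixed where both genes kept their sense-strand counts. These values are therefore no check of stability. No paired analysis was possible because there is 1 group. Reads with several alignments limit the levels of Mir125b-1 and Mir125b-2. Whether they limit those of Mir99a, Mir100, Mir99b and Mirlet7e, with mismatches allowed, was not tested.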
